A study of Mus musculus with 9 samples.

Results

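The wells described here held single GABAergic cells of the mouse ventral midbrain with counts of Onecut2 together with somatostatin (Sst), prepronociceptin (Pnoc) or nephronectin (Npnt) and with little Otx2. They were chosen by measured counts. A well had at least 2 rounded counts of Onecut2, at least 2 of Sst, Pnoc and Npnt together and at most 1 of Otx2, and it had passed the limits on genes, counts and mitochondrial share. The rule found 148 wells, called gated wells below, among 1459 kept wells of 7 plates. The other 1311 kept wells of the same plates served for comparison.

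GABAergic neurons of the ventral midbrain arise from several progenitor domains, migrate into regions such as the substantia nigra pars reticulata, and inhibit dopamine neurons nearby or targets elsewhere. Somatostatin and nociceptin, the product of Pnoc, are neuropeptides that act through inhibitory G protein-coupled receptors, and both are released by subsets of GABAergic neurons in many brain regions. Nephronectin is an extracellular matrix ligand of the integrin with the alpha 8 subunit. Onecut2 belongs to a family of 3 transcription factors with a single cut domain and a homeodomain, which act in the development of the liver, retina and nervous system. Otx2 is a homeodomain factor of the forebrain and midbrain.

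Cells came from the line VGAT:Ai14:PITX3-GFP, in which Cre from the vesicular GABA transporter gene turns on tdTomato and GFP marks cells expressing Pitx3. All groups shared this genotype and the dissected ventral midbrain. Cells positive for tdTomato filled 4 plates at E16 and 3 at P0 (the VGAT plates). A further plate at each stage held cells positive for tdTomato and GFP (the VGAT + PITX3 plates), where 0 of 304 and 1 of 271 kept wells passed the gate, so they were not used further. tdTomato also marks cells that transcribed the transporter gene only earlier. Brains of several litters were used, and the labels do not tie plates to animals. P-values therefore measure the spread between plates, which may be in part technical.

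The well names carry a pair of plate labels that differ. The first matches the sample titles and was used. The second names the other stage for VGAT E16 replicates 3 and 4 and for VGAT P0 replicates 1 and 3. Counts of Pitx3 fitted the sort of the first label: 652 and 174 on the VGAT + PITX3 plates against 0 to 2 on each VGAT plate. They do not bear on stage. Counts of genes that differ between stages are given with both labels, and shares and clusters by stage with the sample titles only. Kept wells of a VGAT plate summed to 1434306 to 5403472 counts, and VGAT P0 replicate 1 had only 44 kept wells. In gated wells the median was 7422 to 45039 counts, 1.06 to 1.51 times that of the other wells of the same plate. A limit of 2 counts is reached more easily in deep wells. Counts of calls are therefore also given with fewer other wells, matched on counts, which changes depth and the number of wells together.

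The sequence at the start of Sst is shown because Sst was the gate gene with the largest spread between plates and because it holds letters that Onecut factors are known to bind. The cAMP response element (TGACGTCA), through which cAMP signalling is known to activate Sst, began 48 bases before the RefSeq start (GRCm38.p6), and the letters ATTGAT began 111 bases before it. The GENCODE M21 gene starts further upstream, so that annotation puts both matches in the first exon, before the coding sequence. The 30 bases around each match, at chr16:23890874-23890903 and chr16:23890938-23890967 on the minus strand, read 5′ to 3′ with the match in capitals:
Sst, TGACGTCA: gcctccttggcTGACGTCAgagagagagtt
Sst, ATTGAT: ctcacttctgtgATTGATtttgcgaggcta
Among 32851 RefSeq windows of 300 bases, searched on both strands, 1.79% held TGACGTCA and 7.54% held ATTGAT or its reverse complement ATCAAT. Of 10 genes of the gate, the label or the largest increases with a window, Sst was the only one with either match. None held ATGCAAAT, the octamer bound by Pou2f2. Matches of letters are descriptions, not binding sites.

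The gate genes are given as a description, since their counts chose the wells. Levels are CPM, the counts of a gene summed per plate over the wells of a set, per 1000000 counts of that sum after scaling by edgeR's normalisation factors. CPM called unnormalised lack that scaling. Onecut2 (18:64340020-64400987, plus strand, GRCm38) stood at 257, 211, 358 and 406 CPM in gated wells of the E16 plates and at 133, 469 and 250 CPM at P0. The other wells held 15.2 to 36.6 CPM. A gated well had a median of 3 counts of Onecut2 and at most 139, and gated wells held 59.8% of all Onecut2 counts of kept wells.

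Sst (16:23889573-23890958, minus strand) varied most between plates. It reached 471, 212, 337 and 1079 CPM at E16 and 17.4, 533 and 623 CPM at P0 in gated wells, against 31.2 to 319 CPM in the other wells. The lowest value belonged to VGAT P0 replicate 1, whose 4 gated wells were the fewest of any plate, and there the other wells lay above the gated ones. A single gated well had up to 272 counts of Sst, with a median of 2. Pnoc (14:65400673-65425472, minus strand) was steadier, at 186 to 377 CPM in gated wells and 96.0 to 197 CPM in the others. Npnt (3:132881745-132950291, minus strand) was low, at 17.4 to 57.9 CPM in gated and 5.6 to 33.4 CPM in other wells. Its median count per gated well was 0.

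The peptides were combined in several ways. Sst and Pnoc without Npnt were counted in 53 gated wells (35.8%), all 3 genes in 25, Pnoc alone in 21 and Sst alone in 19. Pnoc with Npnt was counted in 15 wells, Sst with Npnt in 13 and Npnt alone in 2. At the limits of the gate, 44 gated wells had 2 counts of Onecut2, while 92 wells outside met the other limits with 1 count. Gated wells with 2 summed peptide counts numbered 21, and 36 wells outside had 1. For Otx2, 17 gated wells had 1 count and 7 wells outside had 2. A well is therefore inside or outside by a single count in many cases.

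**Figure D1:**
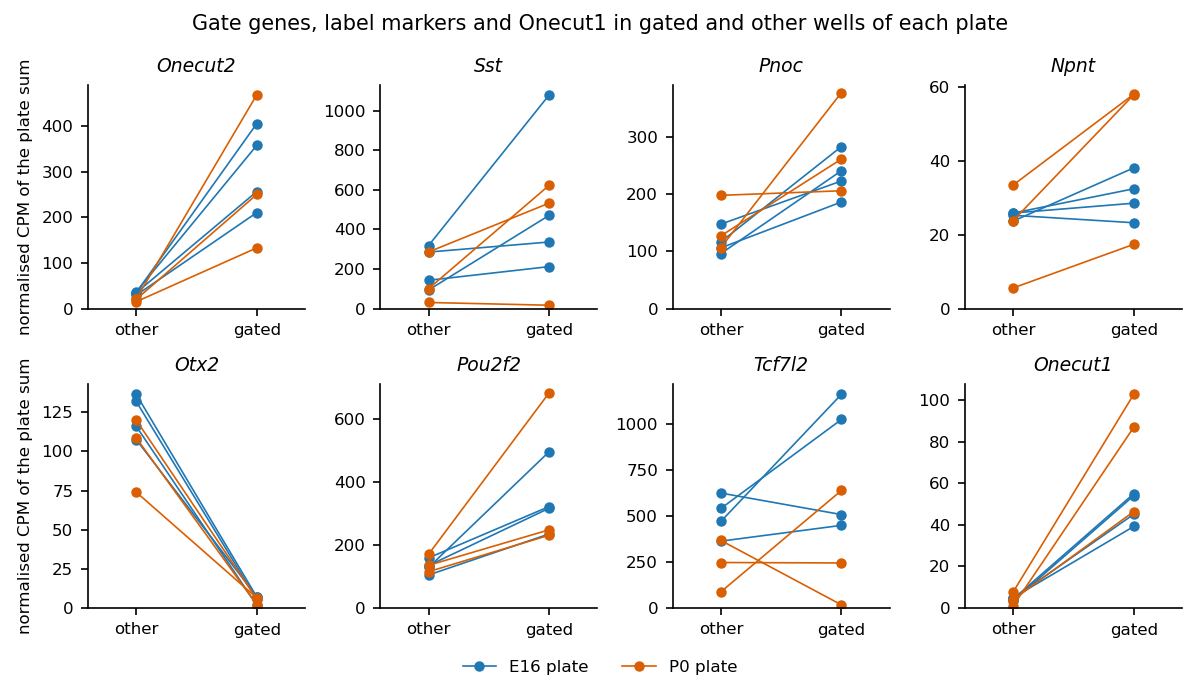
Normalised CPM of the counts summed per plate (vertical axes, linear, from 0) in other and gated wells, with a line for each of the 4 E16 plates (blue) and 3 P0 plates (orange). Onecut2, Sst, Pnoc, Npnt and Otx2 define the gate. Onecut1 and Pou2f2 were higher in gated wells on all 7 plates, and Tcf7l2 on 4 of 7.

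The label of this population names Tcf7l2 and Pou2f2 beside the gate genes, so they serve as a check of it. Pou2f2 (7:25087344-25179726, minus strand), a POU factor that binds the octamer, stood at 231 to 684 CPM in gated wells and at 105 to 170 CPM in the others, with no overlap. It was higher by 1.34 ± 0.13 on the log2 scale (SE, n = 7 plates, edgeR adjusted p = 6.43e-06). Tcf7l2, a transcription factor at the end of Wnt signalling, held 16.6 to 1159 CPM in gated and 87.2 to 623 CPM in other wells. Its difference of 0.40 ± 0.40 did not pass the test (edgeR adjusted p = 0.801). Both genes were named for this population with results of these data known, so the test of Pou2f2 is no independent support.

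The gated wells had the transmitter machinery of GABAergic neurons. Gad1, which makes GABA, was counted in 100% of the 148 wells, Gad2, its second synthetic enzyme, in 97.3% and Slc32a1, the vesicular GABA transporter, in 91.2%. Of 7 tested genes of GABA synthesis, release and uptake 0 passed (edgeR, lowest adjusted p = 0.340), where 1.30% of all genes tested passed, so that little can be read from the count, with Gad1 at 1191 ± 292 CPM in gated and 1066 ± 131 CPM in other wells (SD, n = 7 plates). The vesicular glutamate transporter Slc17a6 was counted in 2 gated wells, tyrosine hydroxylase (Th) in 5 and Pitx3 in 1. In the other wells the shares were 2.67%, 2.06% and 0.229%.

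Markers of other cells stood at low levels. The summed level of 10 astrocyte and radial glia genes was 229 to 421 unnormalised CPM in gated and 230 to 964 in other wells, with 9 of 10 genes counted and Gfap at 0. Oligodendrocyte genes summed to 34.3 to 106 against 50.6 to 96.4 unnormalised CPM, with Sox10 at 0. Microglia genes summed to 5.56 to 71.9 against 16.2 to 102, and vessel and blood genes to 2.02 to 13.9 against 2.11 to 12.3, with Cldn5 at 0 of 148 wells, which allows up to 2.03% of wells with a count and does not limit the share of cells that express it. Genes of dividing and progenitor cells summed to 50.4 to 195 against 89.3 to 144 unnormalised CPM. Of the 2 tested, beside 0.683% lower over all genes, Vim, an intermediate filament gene, was lower by 1.10 (SE 0.25, edgeR adjusted p = 0.0367). Vim was at 17.4 ± 10.6 against 38.6 ± 9.02 CPM, and stood at -0.71 (edgeR adjusted p = 0.407) with other wells limited to at most 1 count of Otx2. It was called in 8 of 18 alternatives. Sox2 did not pass (edgeR adjusted p = 0.74).

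The gated wells were not a single cluster. Kept wells were clustered without the 5 gate genes, which gave 21 clusters, and 17 of them held gated wells. The cluster led by Onecut1, Gm20649 and Col19a1 held 52 gated wells (35.1% of them), which made up 48.6% of that cluster. It is called the Onecut1 cluster below. A cluster led by Sorcs1, Emx2 and Ntng1 held 23, a cluster with Pax6 and several Dlx genes among its leading genes, called the Dlx cluster, held 20, a cluster led by Tril 15 and a cluster led by Mafa and Foxp2 9. Together these 5 clusters held 80.4% of the gated wells. No cell type name is given to the gated wells.

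Within the gate, the Onecut1 cluster and the rest differed in the gate genes. Gated wells of the Onecut1 cluster had 434 ± 122 unnormalised CPM of Onecut2 (SD, n = 6 plates) against 222 ± 115 in gated wells of other clusters (n = 7 plates). Npnt followed the same order at 61.8 ± 11.0 against 24.6 ± 12.6, while Pnoc was at 187 ± 96.9 against 272 ± 77.8. Sst stood at 603 ± 338 and 335 ± 495, with wide overlap. Onecut1 was counted in 41 of 52 gated wells of the Onecut1 cluster and in 17 of 96 elsewhere. Since Onecut1 helped to make the cluster, these values describe it and were not tested. In all kept wells of the Dlx cluster Sst stood at 1375 unnormalised CPM and Onecut2 at 203.

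**Figure D2:**
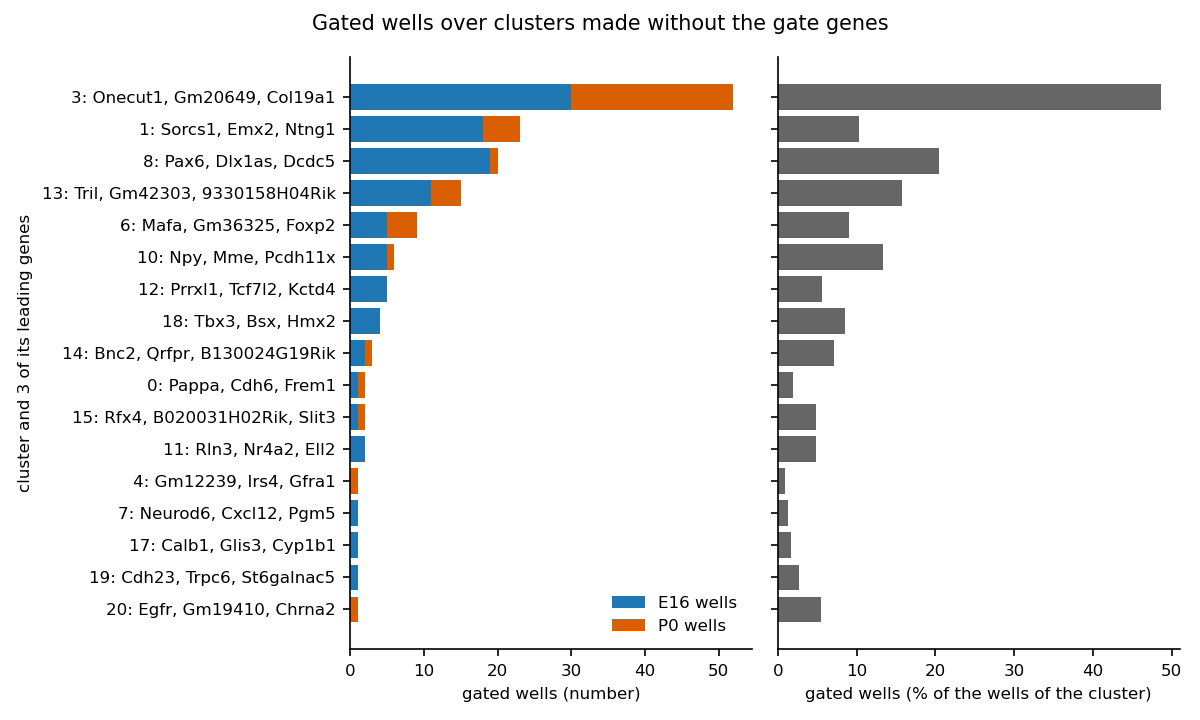
Number of gated wells in each cluster that held any (left, blue for E16 and orange for P0) and the share they made of all kept wells of that cluster (right, in percent), with the cluster number and 3 of its leading genes. The Onecut1 cluster held 52 gated wells and the Dlx cluster 20, of which 19 were from E16 plates.

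The main comparison set gated wells against other kept wells of the same plates over genes that the gate did not use. Onecut1 rose from 4.28 ± 1.99 to 61.3 ± 24.0 CPM (SD, n = 7 plates), Pou2f2, Cdh23 and Zfhx3 were raised, and the nuclear factor I genes Nfib, Nfix and Nfia, Ebf1, Pax5, Prox1 and Lmo1 were lower. Of 10102 genes tested, 131 passed edgeR's quasi-likelihood test with Benjamini-Hochberg adjustment (1.30%), of which 62 were higher (0.614%) and 69 lower (0.683%) in gated wells. With 3 other wells of like depth for each gated well, 72 genes passed, and 119 of the 131 genes could be tested there, all with the same direction. With other wells limited to at most 1 count of Otx2, 79 passed. Without the gated wells of the Onecut1 cluster 48 passed, of which 13 were higher, and without VGAT E16 replicate 3 the count was 81.

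Onecut1 (9:74861921-74891781, plus strand), the founding member of the family, also called HNF6, stood in gated wells at 45.1, 54.0, 39.2 and 54.9 CPM at E16 and at 46.4, 103 and 86.9 CPM at P0. In the other wells it stood at 1.05 to 7.72 CPM. The sets did not overlap on any plate, and the difference was 3.80 ± 0.28 on the log2 scale (edgeR adjusted p = 7.09e-07). It was counted in 39.2% of gated and 3.59% of other wells, and in 14.9% and 1.67% after thinning each well to 4000 counts. Gm20649, higher by 3.80 ± 0.29, lies over Onecut1 on the same strand, so reads may be shared and it is not a separate finding. Onecut3, the third member, was counted in 14.9% of gated and 1.68% of other wells and was too low to be tested here.

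Other transcription factors rose with less size. Zfhx3, a large zinc finger and homeodomain factor, stood at 846 to 1913 CPM in gated and 535 to 943 CPM in other wells, higher by 0.93 ± 0.09 and on each of the 7 plates (edgeR adjusted p = 1.17e-05). When wells were thinned before the gate, which left at most 8 gated wells on a plate, its difference turned to -0.53. Zfp503, a zinc finger factor of the developing striatum, had 32.1 to 79.2 CPM against 14.8 to 27.1 CPM and rose by 1.14 ± 0.21 (edgeR adjusted p = 0.00774). Zfp503 also did not pass with other wells limited in Otx2, at 1.03 (edgeR adjusted p = 0.0771). Without the gated wells of the Onecut1 cluster Zfp503 stood at 0.90 (edgeR adjusted p = 0.293) and Pou2f2 at 0.81 (edgeR adjusted p = 0.182), beside 1.14 and 1.34 with them. Neither passed. Leaving out the cluster changes the number and the makeup of the gated wells together, and the part of each was not tested.

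Cdh23, a cadherin of the tip links of hair cells, stood at 43.2 to 148 CPM in gated and 9.49 to 52.0 CPM in other wells, a difference of 1.49 ± 0.22 (edgeR adjusted p = 0.00101). After thinning it was counted in 21.6% of gated and 7.54% of other wells. The transmembrane gene Tmem132b rose by 0.90 ± 0.14, the neurofilament light chain Nefl by 0.84 ± 0.12 and Ret, the receptor of the GDNF family ligands, by 0.95 ± 0.20. Ret was called in 9 of 18 alternatives. Cpne7, a calcium-dependent phospholipid-binding protein, rose by 1.4 ± 0.25, and the non-coding genes Gm33680 and 2700069I18Rik by 0.94 ± 0.18 and 0.79 ± 0.17. The value of 2700069I18Rik turned to -1.82 when wells were thinned before the gate, and the gene lies opposite Zfhx4.

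Nfib, a nuclear factor I gene known for neuronal and glial maturation, stood at 30.04, 101, 17.8 and 113 CPM at E16 and 0, 6.42 and 18.6 CPM at P0 in gated wells. In the other wells it stood at 318 to 860 CPM, above every gated value. It was lower by 3.55 ± 0.28 on the log2 scale (edgeR adjusted p = 9.46e-07). Its relative Nfix, at 5.79 to 57.8 against 121 to 233 CPM, fell by 2.85 on that scale (SE 0.23), and Nfia fell by 2.12 (SE 0.19). After thinning, the 3 genes were counted in 8.78%, 9.46% and 4.05% of gated wells, against 31.3%, 23.7% and 22.1% of other wells.

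Part of the decreases moved with the Otx2 limit. With other wells limited to at most 1 count of Otx2, Nfib stood at -2.40 on the log2 scale (edgeR adjusted p = 0.000212) and Nfix stood at -1.67 (edgeR adjusted p = 0.0061). Ebf1, a helix-loop-helix factor of neuronal differentiation, fell by 2.34 (SE 0.19) in the main comparison and stood at -0.90 with that limit (edgeR adjusted p = 0.121). Prox1, a homeodomain factor, fell by 2.26 (SE 0.20) and stood at -0.88 with the limit (edgeR adjusted p = 0.314). Otx2os1, which overlaps Otx2 on the opposite strand and could share its reads if counting ignored strand, fell by 2.86 (SE 0.18) and turned to 0.31 with the limit.

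Neurod6, a bHLH factor and a marker of ventral tegmental GABA neurons in the lists used, was at 0 in gated wells of 6 plates and at 11.3 CPM on VGAT E16 replicate 4, against 12.7 to 60.1 CPM in other wells (log2 difference -4.04 ± 0.43). The gated wells held 8 counts in all, so the size of the difference is poorly set: it ran from -8.98 to -3.63 over 16 alternatives, and was -8.85 without VGAT E16 replicate 4. Lmo1, a LIM-only cofactor, fell by 2.34 (SE 0.23), from 62.4 to 128 CPM in other wells to 5.79 to 32.4 CPM in gated wells. Pax5, at 0 to 96.3 against 27.1 to 336 CPM, fell by 2.54 (SE 0.33), and Pou3f1 by 2.41 (SE 0.31). Bhlhe22, Plekhg1 and the non-coding gene 9030622O22Rik fell by 2.78, 2.21 and 2.58 (SE 0.32, 0.34 and 0.27). Pou3f1, Bhlhe22 and Plekhg1 were rare also in the other wells, at 0.352 to 55.1 CPM over the 3 genes.

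**Figure D3:**
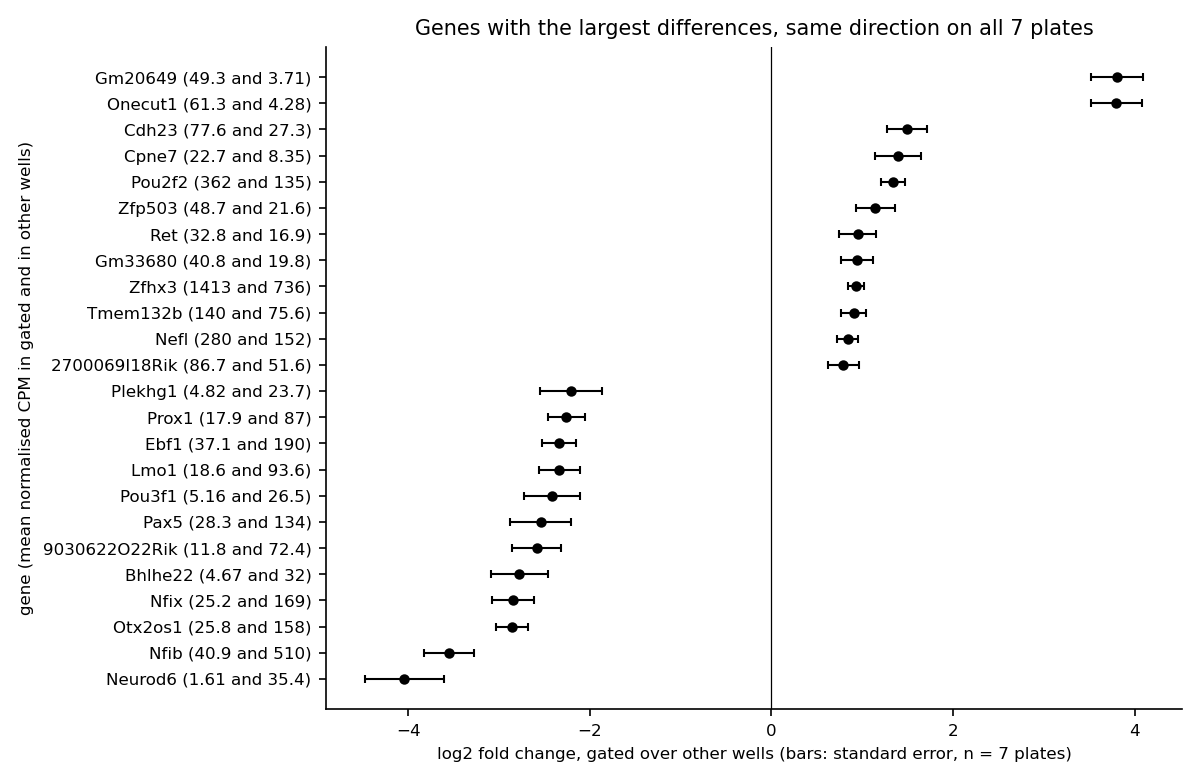
Log2 fold change of gated over other wells within plates (horizontal axis, points, with bars for the standard error, n = 7 plates) for the 12 genes with the largest difference in each direction among those past the threshold with 1 direction on all plates. Mean normalised CPM in gated and in other wells stand beside each gene, from Gm20649 (49.3 and 3.71) at the top to Neurod6 (1.61 and 35.4) at the bottom.

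Of the gene lists, those of transcription factors held most of the changes. Of 39 tested patterning and position factors, 2 rose (Zfhx3 and Otx1) and 12 fell, beside 0.614% higher and 0.683% lower over all genes, with a list median of -0.42 beside 0.01 over all genes tested. The 12 that fell were Nfib, Nfix, Nfia, Ebf1, Ebf3, Prox1, Satb1, Pax5, Bcl11b, En1, En2 and Foxa2. The other wells carried no limit in Otx2, so genes that go with Otx2 differ by the gate in these lists. With other wells limited in Otx2, Ebf1 and Prox1 did not pass (edgeR adjusted p = 0.121 and 0.314), and the list was not counted there. En1 and En2, which pattern the midbrain and rostral hindbrain, fell by 1.43 and 1.51 (SE 0.24 and 0.25). Of 13 midbrain GABA selector factors and partners, 0 rose and 4 fell: Lmo1, St18 by 1.91 (SE 0.26), Zfpm2 by 1.29 (SE 0.12) and Ldb2 by 0.79 (SE 0.11). Zfpm2, the GATA cofactor also called FOG2, stood at 199 to 468 CPM against 470 to 1106 CPM. Gata2, Gata3 and Tal1, which specify midbrain GABAergic neurons, did not pass the test, at log2 differences of -0.23, 0.18 and -0.40 (edgeR adjusted p = 0.729, 0.587 and 0.133). Of 9 tested Onecut and POU factors, Onecut1 and Pou2f2 rose and Pou3f1 fell.

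Lists of markers of midbrain regions, like all lists chosen with earlier results of these data known, were read beside the same shares over all genes (0.614% higher and 0.683% lower). Of 7 tested markers of SNr-1, a Pax5 group of the substantia nigra pars reticulata, 0 rose and 3 fell, and of 6 tested markers of SNr-2, its Six3 group, 0 passed. Their summed levels were 138 to 509 against 289 to 1539 unnormalised CPM for SNr-1 and 744 to 2602 against 878 to 2099 for SNr-2. The list of 6 markers of ventral tegmental GABA neurons holds Otx2, which the gate limits, so its other members are described and read as no result: Neurod6, Lmo1 and Pappa, the 3 tested, were lower, Pappa by 1.32 (SE 0.27). With other wells limited in Otx2, Pappa stood at -0.24 (edgeR adjusted p = 0.889) and Lmo1 at -1.83 (edgeR adjusted p = 0.000316), and Neurod6 was not among the genes tested. Of 7 tested markers of the midbrain reticular formation, Otx1 rose by 0.68 ± 0.16 (edgeR adjusted p = 0.0474, called in 6 of 19 alternatives, at 0.15 without the Onecut1 cluster) and Chrm3 fell by 0.97 (SE 0.18).

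Of 14 tested neuropeptide and secretory granule genes 0 passed against all other wells (edgeR, lowest adjusted p = 0.247), beside 1.30% over all genes, a share at which a list of this size may hold none. Neurotensin (Nts) stood at 68.0 ± 127 CPM in gated and 11.1 ± 10.9 CPM in other wells (edgeR adjusted p = 0.342), and neuropeptide Y (Npy) at 72.4 ± 82.6 against 66.3 ± 50.3. Of 8 tested peptide processing genes 0 passed, with carboxypeptidase E (Cpe) at 925 ± 75.9 against 919 ± 46.1 CPM. Vip and Pvalb, markers of other inhibitory neuron classes, were at 0 of 148 gated wells, which again limits wells with a count and not cells that express them.

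The receptors for the gate's own ligands were tested where their counts allowed. Oprl1, the nociceptin receptor, stood at 95.4 ± 14.5 CPM in gated and 92.1 ± 15.2 CPM in other wells and did not pass (log2 difference 0.04 ± 0.11, edgeR adjusted p = 0.959). It was counted in 27.7% and 26.9% of thinned wells. Sstr1 and Sstr2, receptors of somatostatin, were counted in 14.2% and 11.5% of gated wells and in 9.15% and 7.86% of the shallower other wells, levels near 1 count. Sstr4 was counted in 0 of 148. The integrin genes Itga8 and Itgb1 did not pass (edgeR adjusted p = 0.794 and 0.797).

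Of 48 tested cadherin and adhesion genes, beside 1.30% called over all genes in either direction, 4 rose (Cntn4, Ntm, Pcdh7 and Opcml, by 0.48 to 0.69) and 3 fell (Cdh6, Cdh4 and Negr1). Cdh6 fell by 1.05 (SE 0.17) and turned to 0.41 with other wells limited in Otx2. Of 32 tested guidance genes, Epha6, an ephrin receptor, rose by 0.54 ± 0.10 and Sema6a, a semaphorin, fell by 0.61 (SE 0.10). Of 9 tested genes in a list of netrin receptors that also holds netrins, 0 passed. Of 29 tested genes in the list of potassium channel genes, which also holds Kctd genes, Kctd12 and Kcnc4 rose. Kcnc4 was called in 5 of 19 alternatives and stood at 0.16 without the Onecut1 cluster (edgeR adjusted p = 0.904). Gria1, an AMPA receptor subunit, was the only one of 16 tested ionotropic glutamate receptor genes that passed, and it fell by 0.58 (SE 0.10). Of 15 tested genes in the list of GABA-A receptor subunits, which also holds glycine receptor subunits, 0 passed. Nefl, Camk4 and the chloride exporter Slc12a5 rose among 22 tested genes of neuron maturation, Slc12a5 by 0.42 ± 0.08. Camk4 was called in 5 of 19 alternatives and turned to -0.25 when wells were thinned before the gate. Of 7 tested immediate early and stress genes 0 passed.

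Each limit of the gate was then looked at from its far side. The 58 wells with Onecut2 but under 2 summed peptide counts were compared on the 5 plates where each set had at least 3 wells, which left out 1 such well on each of the remaining P0 plates. These wells were shallower, at a median of 13979 to 17499 counts, and the part of depth in this comparison was not tested. Only Brinp3 passed among 7229 genes (0.0138%). It was called in 6 of 7 alternatives and did not pass without VGAT E16 replicate 4 (edgeR adjusted p = 0.0977). Brinp3, a gene of the BMP and retinoic acid inducible family, stood at 410 to 500 CPM in gated and at 100 to 213 CPM in low-peptide wells of the 5 plates, a difference of 1.55 ± 0.18 (edgeR adjusted p = 0.00845). Unadjusted p-values under 0.05 were found for 581 genes, and DESeq2 called 9. Pou2f2 stood at 339 and 311 CPM and Zfhx3 at 1489 and 1482 CPM in gated and low-peptide wells. Onecut1, at 58.7 against 5.55 CPM, was higher by 3.28 ± 0.59 but did not pass (edgeR adjusted p = 0.104).

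The 37 wells with Onecut2, peptide counts and at least 2 counts of Otx2 were compared on 6 plates, without VGAT P0 replicate 2, which held 1 of them. Of 5680 genes, 42 passed (0.739%), 17 higher in gated wells (0.299%) and 25 lower (0.440%). The count was 15 without VGAT E16 replicate 1, 27 without replicate 3 and 26 without replicate 4 of that stage. The count rests on few wells, with 3 to 14 Otx2 wells a plate. Nfib, at 0 to 124 CPM in gated wells against 20.9 to 2335 CPM, stood at -4.87 ± 0.40 on the log2 scale, and Nfix at -4.30 ± 0.42. Otx2os1, which overlaps Otx2, stood at -4.73 ± 0.34. Tal1, a selector of GABAergic fate, fell from 275 ± 38.5 to 132 ± 37.0 CPM (-1.10 ± 0.20, edgeR adjusted p = 0.0186). Foxa2, a forkhead factor of the midbrain floor plate, stood at -3.07 ± 0.58, Shisa6 at -2.84 ± 0.50 and Zfp536 at -1.95 ± 0.28.

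Cdh23, a cadherin outside the list of adhesion genes, stood at 46.9 to 95.8 CPM in gated and at 0 to 22.5 CPM in Otx2 wells (3.04 ± 0.51, edgeR adjusted p = 0.0119). Of the 43 tested genes of that list, 4 were higher in gated than in Otx2 wells and 0 lower, beside 0.299% and 0.440% over all genes. The protocadherins Pcdh11x and Pcdh15 rose by 2.49 ± 0.27 and 1.49 ± 0.22, Pcdh15 from 418 ± 284 to 1119 ± 372 CPM (SD, n = 6 plates). Calb2, the calcium-binding protein calretinin, was higher by 1.72 ± 0.37 and close to the threshold (edgeR adjusted p = 0.0492). Grm8, a glutamate receptor that inhibits release, rose by 1.39 ± 0.22 and Xylt1 by 1.49 ± 0.31. Calb2 and Xylt1 were each called in 2 of 8 alternatives. Onecut1 stood at 59.9 ± 18.5 against 24.3 ± 24.9 CPM and did not pass (edgeR adjusted p = 0.473).

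Six3 marks a large GABA population of the substantia nigra pars reticulata in the study, and the gated wells held Six3 too, at 372 to 846 CPM against 287 to 603 CPM in all other wells (edgeR adjusted p = 0.0795). Gated wells were therefore set against the 483 other kept wells with at least 2 counts of Six3, with Six3 itself left out of the test. Of 9300 genes 133 passed (1.43%), 66 higher (0.710%) and 67 lower (0.720%). Six3 wells carry no limit in Otx2 while gated wells do, so genes that go with Otx2 differ by the gate. With Six3 wells held to at most 1 count of Otx2 (8 to 70 wells a plate) 48 genes passed, 31 higher and 17 lower, and 35 of the 133 passed again. Onecut1 was higher by 3.62 ± 0.34, Cdh23 by 2.21 ± 0.24, Zfp503 by 1.90 ± 0.26 and 2700069I18Rik by 1.6 ± 0.22. Gm20649, over Onecut1, was higher by 3.48 ± 0.36. With the limit these stood at 4.15, 1.93, 1.72, 1.18 and 4.01 and passed.

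Crhbp, a secreted protein that binds corticotropin-releasing hormone, was higher by 2.45 ± 0.47 than in Six3 wells and on all 7 plates (edgeR adjusted p = 0.00974). Its level in gated wells ranged from 1.81 to 99.8 CPM, and in Six3 wells from 1.07 to 16.4 CPM, so the sets overlapped across plates. Scg2, a secretory granule protein, was higher by 0.50 ± 0.12 (edgeR adjusted p = 0.0495), 1 of 12 tested neuropeptide genes, and did not pass thinned (edgeR adjusted p = 0.812), with DESeq2 (adjusted p = 0.103) or without any one of 5 plates (VGAT E16 replicates 2 and 4 and the P0 plates, edgeR adjusted p = 0.063 to 0.186). Pcsk5, a proprotein convertase, was higher by 0.86 ± 0.17 (edgeR adjusted p = 0.00971), 1 of 8 tested peptide processing genes. Both list counts stand beside 0.710% higher over all genes, and little can be read from a single call. With the Otx2 limit neither Scg2 (0.38, edgeR adjusted p = 0.362) nor Pcsk5 (0.68, edgeR adjusted p = 0.0887) passed. Onecut3 was higher by 3.32 ± 0.50, at 26.1 against 3.64 CPM, on 6 of 7 plates. Nfib, Lmo1, Nfix, Otx2os1, 9030622O22Rik and Sox1ot were lower, by 2.28 to 3.70 in size on the log2 scale. With the Otx2 limit Lmo1 (-1.77) and Sox1ot (-2.18) passed, Nfib (-1.05, edgeR adjusted p = 0.283) and Nfix (-0.46, edgeR adjusted p = 0.878) did not, and Otx2os1 turned to 0.47. Crhbp, Onecut3 and 9030622O22Rik were not among the genes tested there. Cdh6 stood at 121 CPM in gated and 434 CPM in Six3 wells (-1.82 ± 0.19), and Epha5 at 462 and 268 CPM (0.77 ± 0.12). With the limit Cdh6 stood at -0.0015 and did not pass, and Epha5 at 0.83 (edgeR adjusted p = 0.0479). Of 2 tested genes of dividing and progenitor cells both were lower, beside 0.720% lower over all genes, Vim by 1.23 (SE 0.26) and Sox2 by 1.05 (SE 0.20). With the limit Vim and Sox2 stood at -0.077 (edgeR adjusted p = 0.997) and -1.25 (edgeR adjusted p = 0.00642).

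**Figure D4:**
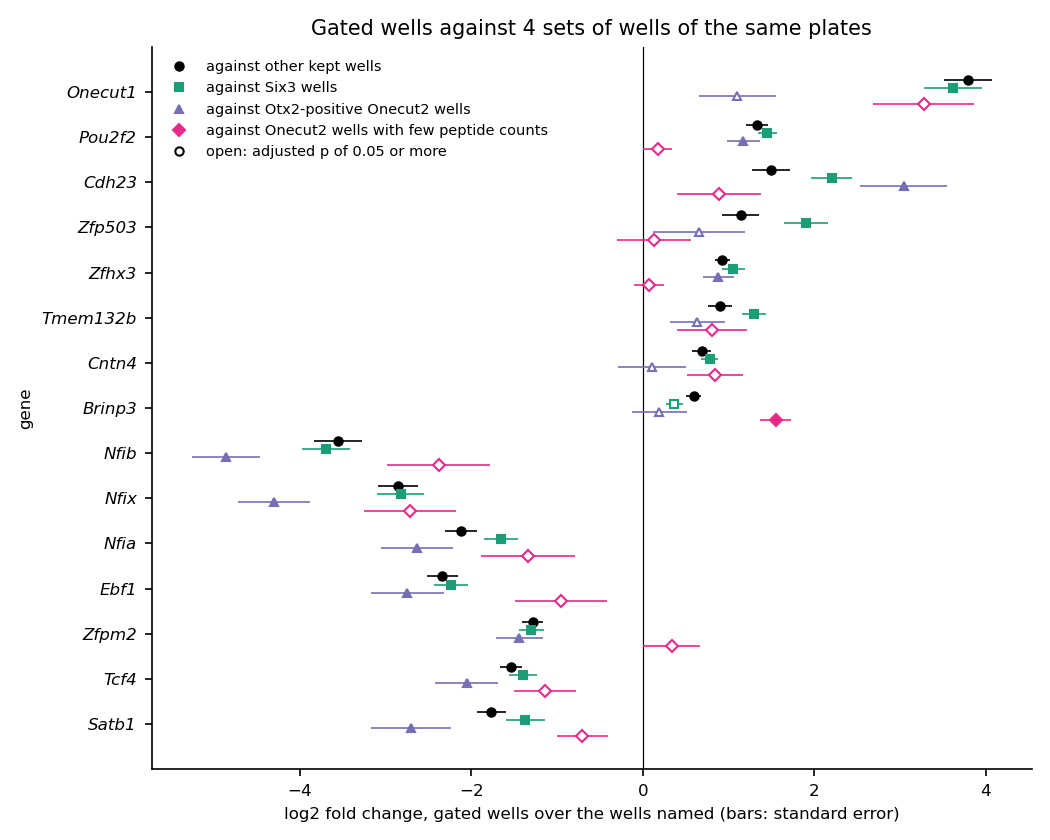
Log2 fold change of gated wells over 4 sets of wells of the same plates (horizontal axis, bars for the standard error, open symbols for an adjusted p of 0.05 or more) for 15 genes chosen after their values were seen. All 4 share the gated wells. Onecut1 stood at 3.80, 3.62, 1.10 and 3.28 against other wells, Six3 wells, Otx2 wells and low-peptide wells, and Nfib at -3.55, -3.70, -4.87 and -2.38.

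The same genes can be read side by side over the 4 comparisons, which share the gated wells and are no independent evidence of each other. Tcf4, a bHLH partner factor, stood at -1.53, -1.4, -2.05 and -1.14 against other, Six3, Otx2 and low-peptide wells, and Satb1, a chromatin organiser, at -1.76, -1.37, -2.70 and -0.70. Zfhx3 stood at 0.93, 1.06, 0.88 and 0.08. Against low-peptide wells none of Tcf4, Satb1 and Zfhx3 passed (edgeR adjusted p = 0.364, 0.585 and 0.949).

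The share of gated wells did not separate the stages. They made up 13.7%, 8.33%, 8.91% and 11.2% of kept wells on the E16 plates and 9.09%, 8.22% and 11.7% on the P0 plates. The exact 95% binomial intervals, which cover counting error only, ran from 5.95% to 12.7% on VGAT E16 replicate 3 and from 2.53% to 21.7% on VGAT P0 replicate 1. The mean was 10.5 ± 2.44% at E16 (SD, n = 4) and 9.67 ± 1.81% at P0 (n = 3), a difference of -0.859 points (two-sided exact permutation test, p = 0.743, the smallest possible being 0.0571). The sign turned to 0.193 points without VGAT E16 replicate 1 and to 1.14 points with a stricter gate.

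Between the stages of the sample titles, gated wells gained transcripts of Thy1 and Vgf and lost those of Nkx2-2 and Zfhx4. Of 8969 genes, 38 passed (0.424%), 26 higher (0.290%) and 12 lower (0.134%) at P0. With the stage of the second part of the well names 0 genes passed in edgeR, with 417 at an unadjusted p under 0.05, and 7 of the 38 kept their sign. The stage results therefore depend on which label is right. The count was 24 without VGAT E16 replicate 1 or 3, 25 without VGAT P0 replicate 2 and 14 without VGAT P0 replicate 3. It was 66 without VGAT E16 replicate 2 and 65 without VGAT P0 replicate 1.

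Thy1, a surface glycoprotein of maturing neurons, stood in gated wells at 12.4, 41.5, 18 and 7.14 CPM at E16 and at 75.6, 154 and 113 CPM at P0. The stages did not overlap, and the difference was 2.57 ± 0.41 (edgeR adjusted p = 0.00737). Vgf, a secreted granule protein and neuropeptide precursor induced by neurotrophins, rose from 70.3 ± 36.2 to 313 ± 65.5 CPM (SD, n = 4 and 3), by 2.12 ± 0.29 (edgeR adjusted p = 0.00279). No other of 12 tested neuropeptide genes passed, beside 0.424% called over all genes. Sema3c, a secreted semaphorin, rose by 1.88 ± 0.30, and no other of 30 tested guidance genes passed, beside the same 0.424%. Slc10a4, a vesicular carrier, Gm8055 and Rasgrf1, a Ras exchange factor, rose by 2.33 ± 0.48, 1.94 ± 0.24 and 1.80 ± 0.35. Slc10a4 was called in 6 of 12 and Rasgrf1 in 9 of 16 alternatives.

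Dlx6os1, a non-coding gene over Dlx6, had 24.3 to 38.7 CPM at E16 and 0 on all 3 P0 plates, where 3 counts would be 6.19 to 19.2 CPM. It is among the leading genes of the Dlx cluster, which held 19 of 106 gated wells at E16 and 1 of 42 at P0. Without the gated wells of that cluster 17 genes passed. The Onecut1 cluster held 30 of 106 gated wells (28.3%) at E16 and 22 of 42 (52.4%) at P0. By plate, 23.1% to 32.4% of gated wells were in the Onecut1 cluster at E16 and 25%, 50% and 60% at P0. These shares by the sample titles were not tested, and the part of the cluster makeup in the stage results was looked at only by leaving out the Dlx cluster.

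Nkx2-2, a homeodomain factor of the ventral neural tube, fell from 112 ± 42.8 to 23.1 ± 19.9 CPM (-2.40 ± 0.44, edgeR adjusted p = 0.0156). Zfhx4 fell from 700 ± 213 to 224 ± 72.6 CPM (-1.63 ± 0.26) and the orphan nuclear receptor Nr2f2 from 315 ± 108 to 118 ± 31.1 CPM (-1.46 ± 0.28). These were the 3 that fell among 36 tested patterning factors, and 0 rose, beside 0.134% lower and 0.290% higher at P0 over all genes. Lhx1, a LIM homeodomain gene of early neurons, fell from 210 ± 32.4 to 78.5 ± 19.6 CPM (-1.49 ± 0.24). Fbxl7 and the non-coding gene Gm38353 stood at -1.91 ± 0.37 and -1.76 ± 0.28. Nr2f2 was called in 7 of 16 and Fbxl7 in 6 of 15 alternatives.

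Of 22 tested genes of neuron maturation, read beside the same shares over all genes (0.290% higher and 0.134% lower), Sncb, the synuclein of presynaptic terminals, rose from 122 ± 46.0 to 293 ± 72.5 CPM (1.28 ± 0.26) and Sox11, a factor of immature neurons, fell from 1271 ± 257 to 578 ± 109 CPM (-1.14 ± 0.20). Sncb was called in 7 of 16 alternatives and Sox11 in 9 of 17. Onecut1 stood at 48.8 ± 7.55 CPM at E16 and 78.5 ± 28.8 CPM at P0 and did not pass (edgeR adjusted p = 0.279). Pou2f2 stood at 346 ± 109 and 388 ± 258 CPM (edgeR adjusted p = 0.905) and Tcf7l2 at 792 ± 365 and 300 ± 315 CPM (edgeR adjusted p = 0.284). The gate genes, described only, stood at 311 ± 91.7 and 284 ± 169 CPM for Onecut2, 531 ± 391 and 390 ± 326 for Sst, 235 ± 39.2 and 281 ± 88.4 for Pnoc and 30.8 ± 6.33 and 44.3 ± 23.2 for Npnt.

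**Figure D5:**
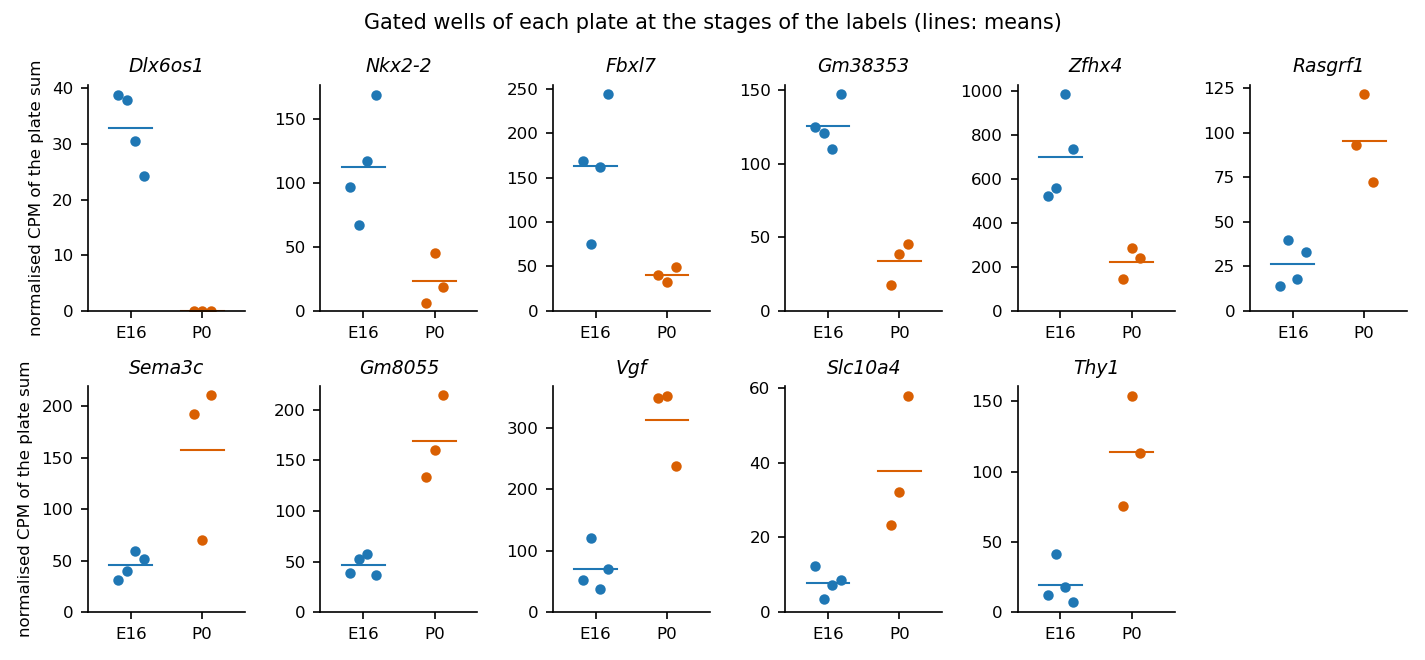
Normalised CPM of gated wells of each plate (points) at E16 (4 plates) and P0 (3 plates) by the sample titles, with the mean of each stage as a line, for 11 genes among those with the largest difference in each direction whose stages did not overlap. Vertical axes are linear and start at 0. With the stage of the second part of the well names, 0 genes passed.

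Whether P0 over E16 differed between gated and other wells was tested as an interaction. Only Otp passed of 11072 genes (0.00903%), with 634 at an unadjusted p under 0.05 and 3 calls by DESeq2. Otp, a homeobox gene of hypothalamic neurons, stood in gated wells at 57.0, 32.2, 24.8 and 0 CPM at E16 and 0, 6.30 and 4.10 CPM at P0. In the other wells it stood at 10.7, 11.8, 8.36 and 0 CPM at E16 and 16.6, 22.2 and 46.0 CPM at P0. The difference of the stage effects was -5.07 ± 0.67 (edgeR adjusted p = 0.0128) and rested on few counts. It was 0.17 with the second part of the well names. Nkx2-2 did not pass the interaction test (edgeR adjusted p = 0.227), which does not show that it changed alike in gated and other wells.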

How the data were processed

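Cells were sorted into 384-well plates and profiled by CEL-seq2. The authors aligned reads with STAR to mm10 (GRCm38, Ensembl annotation) and counted molecular barcodes in each well. What they deposited are expected counts per gene, corrected by the authors for molecules sharing a barcode and not scaled to depth. Whether counting used strand is not given in the sources used here. Values of exons and introns together were rounded here. Wells with at least 2000 genes and at most 50000 counts outside spike-ins and under 15% mitochondrial counts were kept: 2034 of 3455. Doublets were not called; an alternative leaves out wells over 2 times the plate median count. The 148 members and the gene lists were chosen with earlier results of these data known.

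Counts were summed per plate and set of wells (at least 3 wells) and compared in R 4.3.3 by the quasi-likelihood test of edgeR 4.0.16, after filterByExpr and with TMM factors, plate as a block within plates and Benjamini-Hochberg adjustment over all genes tested (threshold 0.05). The 5 gate genes were left out of all tests. DESeq2 1.42.0 was an alternative. The steps were tested on simulated data. Clusters were made with scanpy 1.11.5 (10000 counts per well, log, 40 components, 15 neighbours, Leiden at resolution 1). Positions are from GENCODE M21 and promoter windows from RefSeq, GRCm38.p6. Named genes are the gate genes and label markers, the 12 (other comparisons: 6) largest differences in each direction with 1 direction on all plates (stages: no overlap), up to 4 called members of each list, and defining markers. A result that fell under this rule is not reported here.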

Additional observations from a re-analysis of the deposited data

Results flagged for a closer look

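For the 4 E16 plates 34 sets of values were looked at: levels of named genes in gated wells, the share of gated wells and their depth. In 4 sets, all of genes, a plate lay far from the other 3, where chance gives about 1 in 20 for normally spread values. Cpne7 stood at 45.0 CPM on VGAT E16 replicate 2 and at 8.19 to 14.1 CPM on the others. Zfp503 stood at 79.2 CPM on VGAT E16 replicate 1 and at 32.1 to 39.6 CPM on the others. Neurod6 stood at 11.3 CPM on VGAT E16 replicate 4 and at 0 on the others. With 3 plates at 0 any count on the remaining plate is flagged, so nothing is read from the flag of Neurod6. 9030622O22Rik stood at 57.7 CPM on VGAT E16 replicate 4 and at 5.40 to 10.7 CPM on the others. The effect of stage on Otp differed between gated and other wells by -5.07 on the log2 scale (edgeR interaction, adjusted p = 0.0128).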

How the results depend on the processing

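Of 801 values of the 44 named genes of the comparison within plates under alternatives, 642 kept direction and call, 154 lost the call and 5 reversed. These were, with wells thinned to 4000 counts before the gate, Zfhx3 (-0.53), 2700069I18Rik (-1.82) and Camk4 (-0.25), and, with other wells limited in Otx2, Otx2os1 (0.31) and Cdh6 (0.41). Its 131 calls became 404 with no filter on low counts, 38 with no plate block, 58 thinned (9 higher), 72 with matched wells, 79 with the Otx2 limit and 48 without the Onecut1 cluster, and 81 to 156 when a plate was left out. Matched wells, the Otx2 limits, leaving out the Onecut1 or the Dlx cluster and the second stage label were chosen after seeing the data.

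The calls between stages (38) became 100 with DESeq2, 215 with no filter, 73 with spliced counts, 8 with the stricter gate, 4 thinned, 17 without the Dlx cluster, 0 with the second stage label, and 14 to 66 when a plate was left out. Same-numbered plates did not pair (correlations of 0.0141, 0.00644 and -0.0185). A replicate block gave 18 calls. With the second label Thy1 (-0.66), Slc10a4 (-1.02), Vgf (-0.53), Gm8055 (-0.61), Sema3c (-0.89), Rasgrf1 (-0.16), Sncb (-0.066), Nkx2-2 (1.14), Fbxl7 (0.84), Gm38353 (0.35), Zfhx4 (0.86), Lhx1 (0.44), Nr2f2 (0.71) and Sox11 (0.48) reversed. The interaction (1 call, Otp) gave 3 with DESeq2, 70 with no filter, 5 spliced, 0 with the stricter gate or without the deepest wells and 0 to 7 when a plate was left out, and Otp turned to 0.17 with the second label.

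Calls against Otx2 wells (42) became 248 with no filter and 15 to 56 when a plate was left out, and thinning left too few wells. Calls against low-peptide wells (1) became 9 with DESeq2, 172 with no filter, 0 thinned (Brinp3 was not among the genes tested there) and 0 to 3 when a plate was left out. Calls against Six3 wells (133) became 375 with no filter, 25 thinned, 48 with Six3 wells limited in Otx2 (where Otx2os1 turned to 0.47) and 92 to 160 when a plate was left out. The difference in share turned to 0.376 points thinned and 1.14 with the stricter gate, with -1.87 to 0.193 points when a plate was left out. The cause was not tested. Depth limits genes of few counts: 3 counts in gated wells were 4.10 to 19.3 CPM.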
